A study of Mus musculus with 20 samples.

Results

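The genes described here are 10 regulators of the G1 phase of the cell cycle, chosen by gene symbol: the D-type cyclins Ccnd1, Ccnd2 and Ccnd3, the E-type cyclins Ccne1 and Ccne2, the cyclin-dependent kinases Cdk2, Cdk4 and Cdk6, and the Cdk inhibitors Cdkn1b (p27) and Cdkn2c (p18). They are 10 of the 37561 genes shared by all deposited tables, and all 10 were among the 12830 genes past the filter on low values. Transcripts were measured by RNA-seq in mouse ESD3 embryonic stem cells (strain 129s2/SvPas), cultured on mouse embryo fibroblast feeders and taken through spherical neural masses toward dopaminergic neurons. The control line carried an shRNA against luciferase and the HPRT knockdown line an shRNA directed, per the study's methods, at human HPRT, so that both lines carried a viral shRNA vector and had passed puromycin selection. Days count the differentiation of the spherical neural masses, so day 0 is the stage of those masses and not that of embryonic stem cells. Cells of each line were collected on each day from day 0 to day 4, then on each even day until day 14. There was 1 library per line and day, with the RNAs of a time point pooled, so there was no replicate within a day. Tests took 9 days as their units, and since the days of a line are not independent cultures, p-values measure the spread between days.

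In the G1 phase, D-type cyclins made in response to growth signals bind Cdk4 or Cdk6, and E-type cyclins bind Cdk2. Both kinds of kinase phosphorylate the retinoblastoma protein and its relatives, which then release E2F transcription factors and let the genes of S phase be expressed. Inhibitors of the INK4 family, Cdkn2c among them, bind Cdk4 and Cdk6, while those of the CIP/KIP family, Cdkn1b among them, act on cyclin-Cdk complexes, and cells leaving the cycle to become neurons are known to raise such inhibitors. Embryonic stem cells are known for high cyclin E and Cdk2 activity and a short G1 phase.

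Of the 10 genes, Ccne1 and Cdkn2c differed most between the lines: Ccne1 was lower in the knockdown line and Cdkn2c was higher. Values are log2 ratios of the knockdown over the control library of the same day unless a sentence says otherwise, and errors are standard deviations (SD) over 9 days, all but day 6, which the study left out of its pathway analysis as discrepant. By limma with Benjamini-Hochberg adjustment over all genes, 5 of the 10 genes passed an adjusted p of 0.05, against 53.0% of all genes tested: Ccnd1, Ccnd3 and Cdkn2c rose, and Ccne1 and Cdk4 fell. Of all genes tested, 27.0% rose and 26.0% fell. The median of the 10 mean ratios was 0.10, beside 0.01 over all genes past the filter. The same sign on each of the 9 days was seen for 2 of the 10 genes, Ccne1 and Cdkn2c, and for 29.7% of all genes. In ascending order the mean ratios were those of Ccne1, Cdk6, Cdk4, Cdk2, Ccne2, Cdkn1b, Ccnd2, Ccnd1, Ccnd3 and Cdkn2c. The ranges of mean ± SD overlapped between any 2 neighbours in that order.

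**Figure D1:**
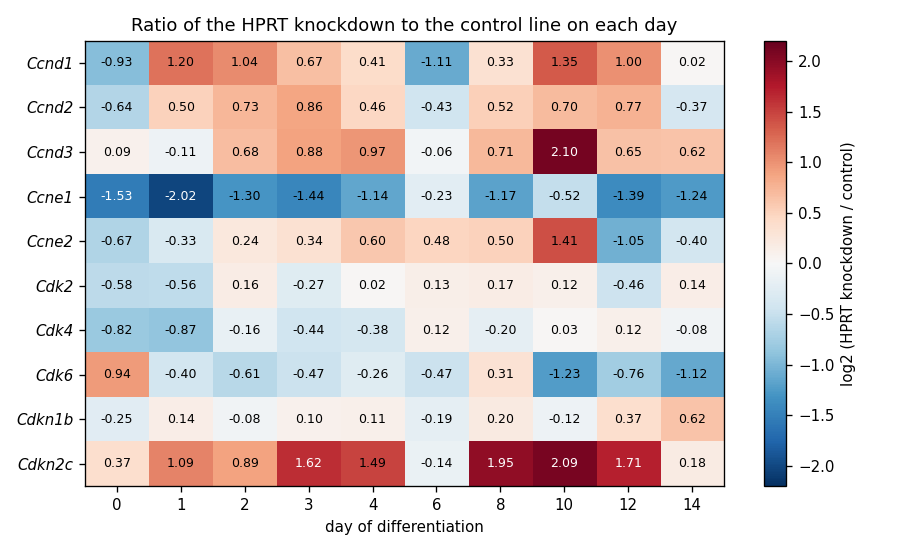
Each cell is the log2 ratio of the HPRT knockdown to the control library of 1 gene (rows) on 1 day (columns), red above 0 and blue below. The row of Ccne1 is blue on all days, from -2.02 on day 1 to -0.23 on day 6, and that of Cdkn2c is red on every day but day 6.

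The targeted gene was examined as a check of the labels. Hprt was lower in the knockdown library on all 10 days, by a mean log2 ratio of -4.00 ± 0.89 (SD, n = 9), which is 16-fold lower, and between 20 and 136 scaled reads were recovered for it in the knockdown libraries against 516 to 877 in the control libraries. The 2 ranges did not overlap. The 7 pluripotent cell markers all fell in the knockdown line, with a median mean ratio of -2.78 and daily medians between -6.83 and -1.11 over the 9 days. Of 5 neuron markers past the filter 3 fell and none rose, while 5 of 8 glial markers rose and none fell. Of 7 neural progenitor markers 1 rose and 2 fell. Of 7 fibroblast markers, which the feeder cells would carry, 2 fell and none rose. For comparison, 27.0% of all genes tested rose and 26.0% fell, so the counts of progenitor and fibroblast markers that fell are near the share over all genes. The tables hold no levels, so no marker could be said to be absent, and in these bulk libraries fewer cells of a type cannot be told apart from less RNA per cell. The part of cell composition in the results below was not tested.

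Positions are given on NCBIM37, the build to which the reads had been aligned, from GENCODE vM1. Ccnd1 lies on chromosome 7 (152115836 to 152125774, minus strand), Ccnd2 on chromosome 6 (127075797 to 127101066, minus strand) and Ccnd3 on chromosome 17 (47642000 to 47736632, plus strand). Ccne1 is on chromosome 7 (38883003 to 38892553, minus strand) and Ccne2 on chromosome 4 (11118498 to 11131926, plus strand). Both Cdk2 (128134995 to 128142107, minus strand) and Cdk4 (126500590 to 126504976, plus strand) are on chromosome 10, and Cdk6 is on chromosome 5 (3343893 to 3523218, plus strand). The inhibitors Cdkn1b and Cdkn2c are on chromosome 6 (134870419 to 134875531, plus strand) and chromosome 4 (109333481 to 109339794, minus strand). The library kit does not mark strand, so reads of overlapping exons cannot be assigned to a gene. Exons of a gene on the opposite strand covered 21.3% of the exon length of Ccnd1 (Oraov1), 15.7% of Ccnd3 (Bysl), 17.4% of Ccne2 (Ints8), 18.6% of Cdk4 (Tspan31) and 1.61% of Cdk6 (Gm17590), while Ccne1, Cdk2, Cdkn1b and Cdkn2c overlapped no annotated gene and Ccnd2 shared no exon base.

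Promoters were read for the letters of 4 E2F motifs, TTTCCCGC, TTTCGCGC, TTTGCCGC and TTTGGCGC, on both strands, because E2F factors act on several of these genes. RefSeq sequences on GRCm38.p6 matched 7 of the 10 symbols, with 9 promoters, 2 each for Ccnd3 and Cdkn2c, and not Ccnd1, Ccnd2 or Ccne2. In the 250 bases before the start, 1 of the 9 promoters, that of Cdk2, held a motif, beside 1.86% of all 32851 promoters (611). The promoters of Ccne1 and Cdkn2c, the genes with the largest differences between the lines, and of Cdk2 are shown, 1 of the 2 in the case of Cdkn2c, from 5′ to 3′ on the strand of the gene, with motif letters in capitals. They come from chr7:38107491-38107740, chr4:109666757-109667006 and chr10:128705052-128705301, all on the minus strand.
Ccne1: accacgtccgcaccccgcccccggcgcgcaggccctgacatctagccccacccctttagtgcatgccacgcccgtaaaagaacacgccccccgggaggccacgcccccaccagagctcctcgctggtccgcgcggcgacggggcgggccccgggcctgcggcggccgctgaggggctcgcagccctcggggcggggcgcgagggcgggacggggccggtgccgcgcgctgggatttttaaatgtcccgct
Cdkn2c: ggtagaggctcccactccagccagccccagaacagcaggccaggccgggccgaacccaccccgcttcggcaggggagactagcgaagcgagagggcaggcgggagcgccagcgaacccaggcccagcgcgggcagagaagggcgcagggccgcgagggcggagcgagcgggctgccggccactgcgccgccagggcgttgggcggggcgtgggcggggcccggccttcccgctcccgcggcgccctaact
Cdk2: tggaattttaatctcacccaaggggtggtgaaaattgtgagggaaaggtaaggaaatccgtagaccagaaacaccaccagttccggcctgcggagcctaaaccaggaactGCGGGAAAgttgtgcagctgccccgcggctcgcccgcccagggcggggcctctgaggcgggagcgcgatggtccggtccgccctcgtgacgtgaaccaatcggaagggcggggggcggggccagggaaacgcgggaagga
In Cdk2 the capitals mark TTTCCCGC on the opposite strand, and they begin at position -140 from the start. No match in Ccne1 or either promoter of Cdkn2c says only that these letters are not in these windows.

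Among the D-type cyclins, the partners of Cdk4 and Cdk6, the 3 mean ratios were all above 0 and 2 passed the test. Ccnd3 rose by a mean of 0.73 ± 0.62 (SD, n = 9), or 1.66-fold, with a limma adjusted p of 0.00844. Its ratio ranged from -0.11 on day 1 through a median of 0.68 to 2.10 on day 10, and 8 of 9 days were above 0. The day 10 value stood apart from the rest, the next being 0.97 on day 4. Bysl, which shares exon bases with Ccnd3, had a mean ratio of the opposite sign, -0.47 ± 0.23 (SD, n = 9).

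Ccnd1, the cyclin D of most proliferating tissues, rose by a mean of 0.57 ± 0.71 (SD, n = 9), or 1.48-fold, with an adjusted p of 0.0472. Between 1887 and 14927 scaled reads were recovered for it in the 10 control libraries, with a median of 3862, and between 1831 and 15796 in the knockdown libraries, with a median of 6315.5. The 2 ranges overlapped almost fully, and the level moved within each line by more than it differed between them. The ratio was -0.93 on day 0, its lowest of the 9 days, and positive on the 8 others up to 1.35 on day 10, with 0.02 on day 14. Without day 0 the mean was 0.75 ± 0.47 (SD, n = 8). The call passed in 4 of 16 alternative settings, with adjusted p between 0.00323 and 0.268. It was lost without day 1, 2, 3, 4, 8, 10 or 12 (means of 0.47 to 0.60), and with day 6 kept the mean was 0.40 and the adjusted p 0.201. Oraov1, which shares exon bases with Ccnd1, had a mean ratio of 0.38 ± 0.32 (SD, n = 9).

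Ccnd2, the cyclin D of many neural and germ cells, had a mean ratio of 0.39 ± 0.53 (SD, n = 9) with an adjusted p of 0.0664, and so did not pass. Its ratio was below 0 on days 0 and 14 (-0.64 and -0.37) and between 0.46 and 0.86 on the other 7 days. Without day 0 its mean was 0.52 with an adjusted p of 0.00853, and without day 14 it was 0.49 with an adjusted p of 0.0272. The 3 D-type cyclins were compared with each other by exact sign flips of the 9 days (a permutation test), and no pair passed: the difference was 0.17 (95% interval -0.11 to 0.46) between Ccnd1 and Ccnd2, -0.17 (-0.72 to 0.39) between Ccnd1 and Ccnd3, and -0.34 (-0.82 to 0.14) between Ccnd2 and Ccnd3.

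The E-type cyclins, which activate Cdk2 at the entry to S phase, went apart. Ccne1 fell by 1.30 on the log2 scale (mean ratio -1.30 ± 0.40, SD, n = 9), which is 2.47-fold lower, with a limma adjusted p of 5.38e-05. Its ratio was lowest on day 1 at -2.02, had a median of -1.30 and was highest on day 10 at -0.52, so that all 9 days were below 0. Between 308 and 1413 scaled reads were recovered for it in the control libraries (median 814) and between 130 and 714 in the knockdown libraries (median 308). The control level was highest on day 3 at 1413 scaled reads, where the knockdown library had 523, and lowest on day 14 at 308 beside 130. The knockdown library was the lower one on each day, although the ranges over the course overlapped. The fall held in all 16 alternative settings, with mean ratios between -1.40 and -1.20. The mean ratio on days 0 to 4 was -1.48 ± 0.34 (SD, n = 5) and on days 8 to 14 it was -1.08 ± 0.38 (SD, n = 4), and the slope of the ratio on day did not pass (0.04 per day, 95% interval -0.01 to 0.09).

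Ccne2 had a mean ratio of 0.07 ± 0.75 (SD, n = 9), with an adjusted p of 0.812. Its ratio ranged from -1.05 on day 12 to 1.41 on day 10 around a median of 0.24, with 5 days above 0 and 4 below. Ccne1 was below Ccne2 on each of the 9 days, by a mean of -1.37 ± 0.55 (SD, n = 9, 95% interval -1.80 to -0.95). The exact permutation test gave a p of 0.00391, the smallest that 9 days allow, and 0.0312 after adjustment over the 8 pairs compared within families. Tests of pairs were chosen after seeing the data, which the adjustment does not cover. Without day 0, 1, 2, 3, 4, 8 or 10 the adjusted value was 0.0625, with differences between -1.44 and -1.30. With 8 days, the smallest possible p of 1 pair taken alone adjusts to 0.0625 over the 8 pairs, so this value does not single out those days. Ints8, which shares exon bases with Ccne2, had a mean ratio of -0.34 ± 0.25 (SD, n = 9).

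**Figure D2:**
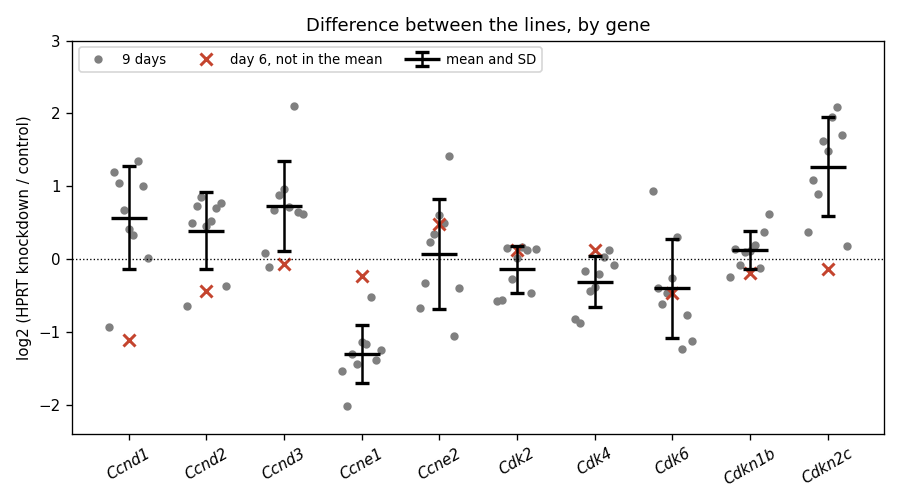
The y axis is the log2 ratio of the HPRT knockdown to the control line. Grey points are the 9 days, black bars the mean and SD, and red crosses day 6. The grey points of Ccne1 all lie below 0 and those of Cdkn2c above, while each of the other genes has grey points on both sides.

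Of the kinases, Cdk4 fell and the other two did not pass. Cdk4, the partner of D-type cyclins, had a mean ratio of -0.31 ± 0.35 (SD, n = 9), or 1.24-fold lower, with a limma adjusted p of 0.0414. It was -0.82 on day 0 and -0.87 on day 1, between -0.44 and -0.16 on days 2 to 4, and between -0.20 and 0.12 on days 8 to 14. The mean of days 0 to 4 was -0.53 ± 0.30 (SD, n = 5) and that of days 8 to 14 was -0.03 ± 0.14 (SD, n = 4). The slope of its ratio on day was 0.06 per day (95% interval 0.02 to 0.09) with an adjusted p of 0.0433, and it was the 1 gene of the 10 to pass this test, against 14.9% of all genes. Its fall passed in 7 of 16 alternative settings and its slope in 4 of 14. The fall was lost without day 0, 1, 2, 3, 4 or 8 (means of -0.33 to -0.24), and the slope passed without day 2 but not without any other day (0.05 to 0.07 per day). With day 6 kept the adjusted p was 0.0713 for the fall and 0.0854 for the slope. Tspan31, which shares exon bases with Cdk4, had a mean ratio of 0.23 ± 0.27 (SD, n = 9).

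Cdk2, the partner of cyclin E, had a mean ratio of -0.14 ± 0.32 (SD, n = 9) with an adjusted p of 0.292. Scaled reads recovered for it numbered 438 to 919 in the control libraries (median 688.5) and 324 to 833 in the knockdown libraries (median 594.5), ranges that overlapped widely. Its ratio was lowest on days 0 and 1 (-0.58 and -0.56) and highest on day 8 at 0.17. Cdk6, the other partner of D-type cyclins, had a mean ratio of -0.40 ± 0.68 (SD, n = 9) with an adjusted p of 0.126. It was 0.94 on day 0 and below 0 on 7 of the 8 later days, down to -1.23 on day 10. Without day 0 its mean was -0.57 ± 0.49 (SD, n = 8) with an adjusted p of 0.0148. Values of Cdk6 depended on the table used by up to 0.24 on the log2 scale. No pair of the kinases passed the exact permutation test, with differences of 0.17 (95% interval -0.06 to 0.40) between Cdk2 and Cdk4, 0.26 (-0.40 to 0.92) between Cdk2 and Cdk6, and 0.09 (-0.64 to 0.82) between Cdk4 and Cdk6.

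The inhibitors differed from each other. Cdkn2c, which binds Cdk4 and Cdk6, rose by a mean of 1.27 ± 0.68 (SD, n = 9), or 2.40-fold, with a limma adjusted p of 0.000699. Its ratio was 0.37 on day 0, between 0.89 and 1.62 on days 1 to 4, between 1.71 and 2.09 on days 8 to 12, and 0.18 on day 14. All 9 days were above 0 and the median was 1.49. The rise held in all 15 alternative settings in which it was tested, with means between 1.13 and 1.40. The typical log2 count of Cdkn2c was between 4 and 8, so it was not tested at the stricter filter of 8. Its reads were not recovered, and its values depended on the table used by up to 0.21 on the log2 scale. Cdkn1b, which binds cyclin E with Cdk2, had a mean ratio of 0.12 ± 0.26 (SD, n = 9) with an adjusted p of 0.287. Its scaled reads numbered 802 to 1523 in the control libraries (median 1075.5) and 780 to 2321 in the knockdown libraries (median 1143). The highest ratios of Cdkn1b were those of days 12 and 14, 0.37 and 0.62. Cdkn1b was below Cdkn2c by a mean of -1.14 ± 0.76 (SD, n = 9, 95% interval -1.73 to -0.56), on 8 of 9 days, with an exact permutation p of 0.00781 and 0.0312 after adjustment. Without day 0, 1, 2, 3, 4, 8 or 10 the adjusted value was 0.0625, with differences between -1.21 and -1.01. Of the 8 pairs within families, 2 passed, this one and that of the E-type cyclins, in tests chosen after seeing the data.

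**Figure D3:**
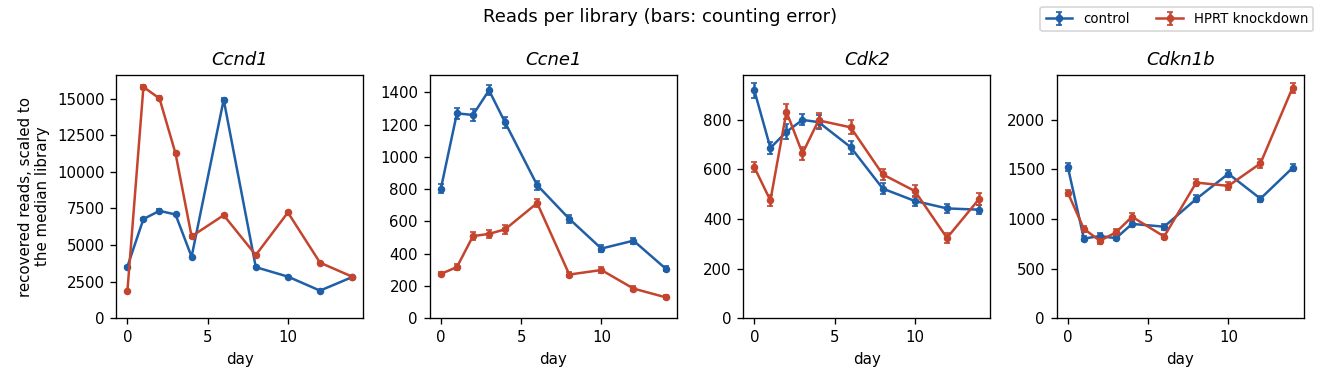
Reads of each library, scaled to the median library, are plotted against day for the 4 genes whose reads could be recovered, in blue for the control and red for the HPRT knockdown line, with counting error as bars. Ccne1 is lower in the knockdown line on every day, and Ccnd1 peaks on day 1 in the knockdown line (15796) and on day 6 in the control line (14927).

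Levels between genes can be compared only for the 4 genes whose reads were recovered, per kilobase of annotated exon. In the control line the median of the 9 days was 919 scaled reads per kilobase for Ccnd1, 302 for Ccne1, 282 for Cdk2 and 264 for Cdkn1b. In the knockdown line it was 1460 for Ccnd1, 278 for Cdkn1b, 238 for Cdk2 and 112 for Ccne1. Ccnd1 was the highest of the 4 in both lines, and the levels of Ccne1, Cdk2 and Cdkn1b in the control line overlapped (ranges 116 to 531, 180 to 378 and 176 to 335 scaled reads per kilobase). The counting error of a value was between 0.788% and 8.91%, smaller than the spread between days.

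On day 0, when cells were spherical neural masses, 6 of the 10 genes had a ratio of at least 1.5-fold, against 40.5% of all genes. Of the 6, Ccnd1, Ccnd2, Ccne1, Ccne2 and Cdk4 were lower and Cdk6 was higher. The other days ranged from 1 of the 10 genes (day 6, against 23.9% of all genes) to 7 (day 12), with 6 on days 2 and 10. The share of all genes was not counted for days other than 0 and 6, so those counts have no comparison. On day 1 the ratio of Ccnd1 was 1.20 and that of Ccnd2 0.50, both above 0. From day 0 to day 1 Ccnd1 changed by 3.12 (log2) within the knockdown line and by 0.93 within the control line, which was 1831 to 15796 and 3524 to 6777 scaled reads. Ccnd2 changed by 1.15 and -0.07 (log2) over the same step. Cdk6 changed by 1.31 in the control line and -0.02 in the knockdown line. Cdkn1b changed by -0.94 and -0.48. With 1 library per line and day, these steps are sizes and have no test.

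On day 6, 7 of the 10 genes had a ratio of the opposite sign to their mean over the other 9 days, as had 55.1% of all genes. Only Ccnd1 reached 1.5-fold, with a ratio of -1.11, against 23.9% of all genes that did. In the control line Ccnd1 changed by 1.83 from day 4 to 6 and by -2.07 from day 6 to 8 (log2), and Cdkn2c changed by 1.41 and -1.81 over those steps. The steps of Ccnd3 in the control line were 1.62 and -0.94, and those of Ccnd2 were 0.85 and -1.07. In the knockdown line the same steps were 0.33 and -0.73 for Ccnd1, -0.40 and 0.19 for Cdkn2c, 0.62 and -0.26 for Ccnd3, and -0.02 and -0.21 for Ccnd2. The daily median of the pluripotent cell markers was 0.16 on day 6, and that of the proliferation markers 0.32, above 0 where all other days were below.

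Within the control line, 5 of the 10 genes fell over the course, against 44.5% of all genes that changed and 24.8% that fell. The slopes on day (log2 per day, limma) were -0.18 for Ccne2 (95% interval -0.22 to -0.14, adjusted p 0.000287), -0.14 for Ccne1 (-0.20 to -0.09, adjusted p 0.00215) and -0.10 for Ccnd1 (-0.17 to -0.04, adjusted p 0.0177). They were -0.10 for Cdk4 (-0.13 to -0.07, adjusted p 0.000732) and -0.07 for Cdk2 (-0.10 to -0.05, adjusted p 0.00125). On day 14 the control line stood at -2.07 for Ccne2, -1.39 for Ccne1, -1.43 for Cdk4 and -1.02 for Cdk2, relative to its day 0. The slope of Ccnd1 did not pass with day 6 kept (adjusted p 0.104), without day 12 (adjusted p 0.0645) or against log2(day + 1) (adjusted p 0.104). The other 4 passed in each alternative setting in which they were tested.

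In the knockdown line, 2 of the 10 genes passed, against 13.7% of all genes. Ccne2 fell by 0.19 on the log2 scale per day (slope -0.19, 95% interval -0.31 to -0.07, adjusted p 0.0496), and Cdkn1b rose with a slope of 0.08 per day (0.03 to 0.12, adjusted p 0.0332). Ccne2 passed in 3 of 13 alternative settings, among days left out only without day 0 or day 10, and Cdkn1b in 6 of 14, among days left out only without day 0 or day 1. Ccne1, with a slope of -0.10 in the knockdown line, had an adjusted p of 0.0617. Without day 0 the slopes of Ccnd1 (-0.17, adjusted p 0.0129) and Ccne1 (-0.13, adjusted p 0.018) passed too, and 6 of the 10 genes did, against 22.8% of all genes in that setting. Whether the lines differed in slope was read from the slope of the ratio, which for 9 of the 10 genes did not pass. Ratios and courses came from separate comparisons of libraries, so the slopes of the lines need not subtract exactly to that of the ratio. For Cdk6, whose values depended on the table used by up to 0.24 on the log2 scale, they were 0.03 (control), -0.07 (knockdown) and -0.08 (ratio).

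**Figure D4:**
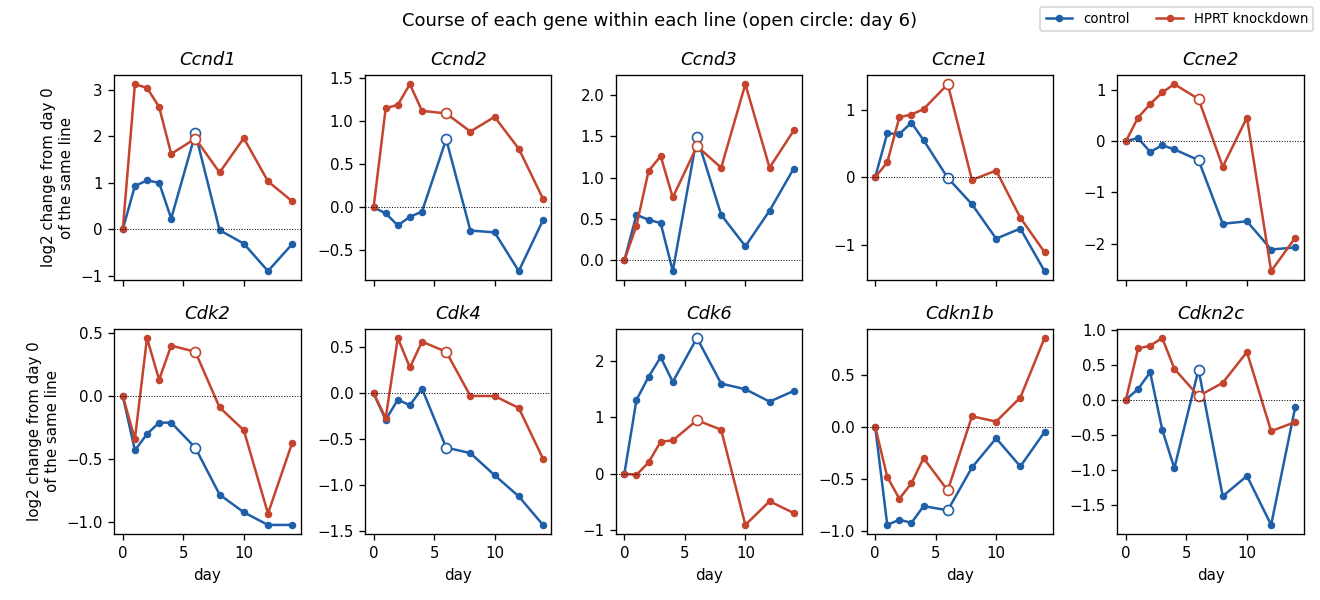
Each panel follows 1 gene over 14 days in the control (blue) and HPRT knockdown line (red), as the log2 change from day 0 of the same line, with day 6 as an open circle. Both lines start at 0, so the gap between them is relative to day 0. Ccne2 ends at -2.07 in the control and -1.88 in the knockdown line, and Ccnd1 steps up by 3.12 in the knockdown line on day 1.

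Other genes of the pathway were read by lists written from their roles, with the same test over all genes, of which 27.0% rose and 26.0% fell. Of the other Cdk inhibitors, 4 of 5 were past the filter, and Cdkn1c (p57) fell (mean ratio -1.26 ± 0.63, SD, n = 9, adjusted p 0.000489), lower on all 9 days. Cdkn2b (p15) rose (0.68 ± 0.67, SD, n = 9, adjusted p 0.0172), and the remaining 2 did not pass. Of the 3 pocket proteins, which hold E2F factors in check, Rb1 and Rbl2 rose on all 9 days with mean ratios of 0.37 ± 0.13 and 0.81 ± 0.26 (SD, n = 9). The third of the list did not pass. On day 6 the ratios of Rb1 and Rbl2 were -0.82 and -0.35.

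Of 10 E2F and DP factors, 6 fell, none rose and 4 did not pass, where 26.0% of all genes fell. Their median was -0.43 beside 0.01 over all genes. The largest changes were those of E2f4 (-0.86 ± 0.27, SD, n = 9), a repressor E2F of resting cells, and E2f1 (-0.82 ± 0.42, SD, n = 9), an activator. E2f8 and E2f2 followed with -0.68 ± 0.54 and -0.49 ± 0.52 (SD, n = 9). Of 10 Cdk activators and genes of cyclin turnover, 6 fell and none rose, beside the same 26.0% of all genes, with a median of -0.34. Skp2, the ubiquitin ligase subunit that targets Cdkn1b for destruction, fell with a mean ratio of -1.14 ± 0.42 (SD, n = 9), and its cofactor Cks1b fell with an adjusted p of 0.000379. Cdc25a, a phosphatase that activates Cdk2, and Cul1, the scaffold of the same ligase, were at -0.71 ± 0.41 and -0.49 ± 0.15 (SD, n = 9). These 4 were lower on all 9 days.

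The cyclins and kinase of the later phases fell without exception among those past the filter: Ccna2, Ccnb1, Ccnb2 and Cdk1 had mean ratios of -0.67 ± 0.46, -0.97 ± 0.45, -0.90 ± 0.45 and -1.18 ± 0.49 (SD, n = 9), each lower on all 9 days. Of 6 proliferation markers 5 fell and none rose, beside 26.0% of all genes that fell, with mean ratios from -1.07 to -0.22. On day 6 the ratios of Ccna2, Ccnb1, Ccnb2 and Cdk1 were above 0, between 0.21 and 0.87. Of 4 genes upstream of the D-type cyclins, 2 rose and 2 fell. Mycn, the Myc factor of neural progenitors and embryonic stem cells, fell (-2.46 ± 1.23, SD, n = 9, adjusted p 0.000445), and so did Mycl1 (-0.86 ± 0.63, SD, n = 9, adjusted p 0.00392). Myc rose (1.04 ± 1.12, SD, n = 9, adjusted p 0.0232), on 7 of 9 days, and Ccndbp1, a protein that binds D-type cyclins, rose on all 9 days (0.44 ± 0.13, SD, n = 9, adjusted p 0.000334).

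**Figure D5:**
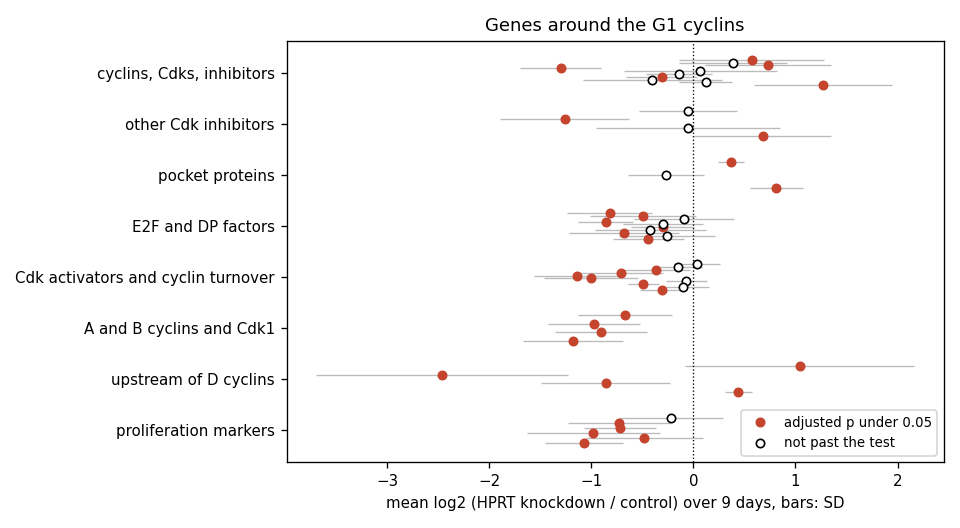
Each point is the mean log2 ratio of the HPRT knockdown to the control line over 9 days for 1 gene of the list named on the left, with SD as a grey bar, filled red where the adjusted p was under 0.05 and open otherwise. The E2F factors, Cdk activators, A and B cyclins and proliferation markers that passed all lie below 0, and the 10 G1 genes lie on both sides.

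The ratios of some of the 10 genes moved together over the 9 days. Pearson's r was 0.932 between Ccnd3 and Ccne1, 0.861 between Ccnd1 and Ccnd2 and 0.796 between Ccnd2 and Cdkn2c, and the lowest was -0.703 between Ccnd1 and Cdk6. These values describe 9 points that share their libraries and carry no test. Among the 7267 genes of higher level (log2 count of 8 or more), the genes whose ratio followed Ccnd1 most closely were Ndufv2, Uqcr10 and Ndufa13 (r from 0.969 to 0.976), which encode respiratory chain subunits. Their mean ratios were 0.00, 0.09 and 0.17, so the likeness is in the pattern over days and not in the size of the mean. Among the closest to Ccne1 were Hspa14 (0.951) and Cdc23 (0.935), and closest to Cdkn1b were Ppil2 (0.887), Sh3bp5l (0.879) and Rfxank (0.876).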

How the data were processed

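RNA was sequenced from 20 libraries, 10 of each line, in a HiSeq run of 50 cycles. Per the study's methods and the labels, the authors aligned reads to mm9 with CASAVA 1.8.2, counted them per gene and normalized them with DESeq. They deposited 28 tables of 2 libraries on a log2 scale, each value minus the mean of the pair, so that a table gives a log2 difference and no level. Tables were normalized separately, and genes at or below 1 normalized count entered as a log2 value of 0. Read totals and the lane of each library are not given in the sources used here, and batches were therefore not examined.

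The level of a gene was read from the single-precision rounding step of its values, and 12830 genes whose typical log2 count was 4 or more were kept. Around the loops of 4 tables of neighbouring days, 91.2% to 92.8% of these genes closed within 1e-05 in 8 loops and 0.0468% in the loop of days 3 and 4. Ratios came from the table of each day, and courses from adding the steps of consecutive days, which joins tables normalized separately. Both were tested with limma 3.58.1 in R 4.3.3 over 9 days, two-sided, with Benjamini-Hochberg adjustment over all genes. The scripts were tested on simulated data. The lines were paired by day of differentiation, within which the study compared them. Whether both lines were grown and collected together is not stated. Deviations of the paired libraries correlated on 8 of 9 days (r 0.125 to 0.512, and 0.0343 on day 0). These deviations are from the mean of each line and include any course over days common to both lines. Size factors were read from the values of genes of low count. Read counts, which lay on a grid of 1 read divided by 49, were then recovered for 4 of the 10 genes from their own log2 differences. They were scaled by size factors of 0.823 to 1.6 relative to the median library. Counting errors cover counting only. Differences within families were tested by exact sign flips of the days, chosen after seeing the data. The 10 genes, the lists and the tests were chosen with earlier results of these data known. All 10 are named whatever their values, and each pathway list names at most the 4 genes with the largest mean ratio in size among those past the test. Marker lists are given by counts. Alternatives were other filters, scalings, routes through the tables, days and tests, and no pairing. One gene that the likeness to Ccne1 would name is not reported here.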

Additional observations from a re-analysis of the deposited data

Results flagged for a closer look

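Among 30 sets of 10 daily values, the ratio of each gene and its level in each line, 3 had a day whose gap to the nearest other, divided by the range, was above Dixon's 95% critical value, which by its definition flags about 1 in 20 sets when nothing stands apart. The sets share libraries, and the number found was not tested. The ratio of Ccnd3 was 2.10 on day 10. Ccnd2 stood 0.95 (log2) above the median of the control line on day 6, and Cdk6 stood at -1.47 (log2) from the median of the control line on day 0. The slope of the ratio of Cdk4, 0.06 per day, passed by limma (adjusted p 0.0433), but in only 4 of 14 alternative settings.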

How the results depend on the processing

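The rise of Ccnd3 and Cdkn2c and the fall of Ccne1 passed under every alternative in which they were tested; those of Ccnd1 and Cdk4 did not. In the main setting 5 of the 10 genes and 6803 of the 12830 tested differed between the lines. Without the filter it was 3 of the 10 and 7716 of the 19041 genes with reads. With day 6 kept 3 differed (5891 of 12830), and without pairing the lines 3 did (no replicate block, 5417 of 12830). Leaving out a day gave 3 to 6 (5996 to 6944 of 12830). With the filter at a log2 count of 8, 4160 of the 7267 genes tested passed. Ccne2, Cdk6 and Cdkn2c had lower counts and were not tested at that filter. For the slope of the ratio, 0 of the 10 passed without the filter (1873 of 19041) and 0 with day 6 kept (1045 of 12830). With a day left out 0 to 1 passed (732 to 1733 of 12830). For the control slope 3525 of 7267 genes passed at the filter of 8. Leaving out a day gave 4 to 7 of the 10 (4470 to 6051 of 12830). For the knockdown slope 1 passed without the filter (1669 of 19041) and 1 with day 6 kept (1282 of 12830). Against log2(day + 1) 0 passed (104 of 12830), and with a day left out 0 to 6 did (190 to 2925 of 12830). None of the values that changed sign had passed. With a day left out, the mean ratio of Ccne2 lay between -0.10 and 0.21, the difference of Cdk4 and Cdk6 between -0.06 and 0.32, and the slope of the ratio between -0.03 and 0.07 for Ccnd1, -0.04 and 0.05 for Ccnd2, -0.03 and 0.04 for Ccne2 and -0.01 and 0.11 for Cdkn2c. The control slope of Cdk6 lay between -0.02 and 0.04, and the knockdown slope of Ccnd2 between -0.07 and 0.00. The slope of the ratio of Ccne2 was 0.12 against log2(day + 1), and that of Ccnd2 was -0.00 with each day centred. Both family differences that passed kept their size with a day left out (-1.50 to -1.30 and -1.34 to -1.01). Their adjusted p from the exact sign flips was 0.0625 without day 0, 1, 2, 3, 4, 8 or 10. With 8 days tested, the smallest possible p of 1 pair taken alone adjusts to 0.0625, which applies to Ccne1 and Ccne2, apart in the same direction on all 9 days. Cdkn1b was above Cdkn2c on day 14, so the p of that pair lies above the smallest possible while day 14 is kept. For Cdkn1b and Cdkn2c the adjusted p was 0.0417 without day 12 and 0.0312 without day 14. The cause of the other changes was not tested. One library per line and day limits every statement on a single day.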
